A study of Caenorhabditis elegans with 2 samples.

Results

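The genes cct-1 to cct-8 encode the subunits of the cytosolic chaperonin TRiC/CCT in Caenorhabditis elegans, and all 8 were found in the gene annotation among 19973 protein-coding genes. They were taken by name, as a set chosen with earlier results of these data known. For each, the promoter window ran from 1000 bp upstream to 500 bp downstream of a transcript's 5′ end. The strongest entry with its summit in that window was read from every list of ChIP-seq regions. The lists come from chromatin of whole hermaphrodite L1 larvae of strain OP512, of genotype unc-119(tm4063) III; wgIs512, collected 6 hours after arrest of hatched larvae by starvation. SWSN-7 carries an ARID domain and belongs to PBAF, a form of the SWI/SNF complex, which moves nucleosomes. The transgene adds a C-terminal GFP-FLAG tag to it, and the labels describe precipitation with an antibody against GFP, although their antibody field names swsn-7. There was 1 group of 2 biological replicates and no comparison between groups. Both replicates carry the transgene and the unc-119 mutation, and the labels do not say in which cells the transgene is expressed. The files hold positions and the peak caller's signal value, with no read counts, so the depth is unknown. The control chromatin named in the labels was not analysed here, and no background of the precipitation can be set beside the values.

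TRiC is a double ring in which each subunit takes a fixed place, and it uses ATP to fold actin, tubulin and many proteins with WD repeats. Every subunit is needed for a working ring, and its genes are essential in yeast. Prefoldin hands newly made actin and tubulin to it, and the Hsp70 and Hsp90 systems act on other substrates in the same cytosol. In animals, HSF-1, the heat shock factor, controls many chaperone genes through heat shock elements, which are inverted repeats of the unit nGAAn.

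SWSN-7 regions lay at 6 of the 8 CCT genes. These were cct-1 (the alpha subunit), cct-2 (beta), cct-5 (epsilon), cct-6 (zeta), cct-7 (eta) and cct-8 (theta), each with a summit in its promoter window in the list of regions that passed the authors' irreproducible discovery rate (IDR) threshold. Of all protein-coding genes, 15.9% had such a summit. The gene cct-4 (delta) had a promoter entry in the pooled candidate list that did not reach the IDR list, and cct-3 (gamma) had no promoter entry in either. All 8 CCT genes, cct-3 included, lay head-to-head with a neighbour less than 1500 bp away, as did 21.9% of all protein-coding genes. At the 7 genes with an entry, each summit lay between the gene and its neighbour. A heat shock element pair lay on the side of the CCT gene. Of 200 bp windows at promoter summits of the IDR list, 17.0% held such an element pair on either side.

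The sequences around the 7 summits are printed because all 7 hold such an element pair. Each runs 5′ to 3′ in the sense of the CCT gene, from 30 bases before the pooled summit to 80 bases after it, with capitals for matches to GAANNTTC or TTCNNGAA. They are ordered by the signal value of the entry, with cct-4, which has no IDR entry, last.

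cct-8: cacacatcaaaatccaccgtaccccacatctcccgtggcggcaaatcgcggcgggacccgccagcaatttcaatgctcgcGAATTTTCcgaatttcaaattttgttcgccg
cct-1: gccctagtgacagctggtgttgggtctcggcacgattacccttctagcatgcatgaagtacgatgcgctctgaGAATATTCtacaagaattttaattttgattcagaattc
cct-7: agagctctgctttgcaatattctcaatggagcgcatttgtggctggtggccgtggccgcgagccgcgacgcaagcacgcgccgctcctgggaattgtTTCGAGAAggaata
cct-6: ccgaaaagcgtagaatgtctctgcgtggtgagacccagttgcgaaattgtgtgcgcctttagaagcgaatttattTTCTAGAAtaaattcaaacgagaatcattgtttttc
cct-5: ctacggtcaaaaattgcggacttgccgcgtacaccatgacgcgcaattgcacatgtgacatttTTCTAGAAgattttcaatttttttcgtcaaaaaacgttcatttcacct
cct-2: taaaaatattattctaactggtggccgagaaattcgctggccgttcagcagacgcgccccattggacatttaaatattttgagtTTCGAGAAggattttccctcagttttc
cct-4: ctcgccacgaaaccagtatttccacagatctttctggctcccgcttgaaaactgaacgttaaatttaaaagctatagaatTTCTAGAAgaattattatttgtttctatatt

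These stretches were read from the RefSeq sequence of WBcel235, the ce11 build, and none overlapped an annotated exon of a protein-coding gene. They are chrIV:1094275-1094385 (minus strand) for cct-8, chrII:8185178-8185288 (plus) for cct-1, chrV:1871935-1872045 (plus) for cct-7 and chrIII:5855891-5856001 (minus) for cct-6. Those of the remaining genes are chrIII:4508486-4508596 (minus) for cct-5, chrII:8927391-8927501 (plus) for cct-2 and chrII:8283421-8283531 (plus) for cct-4. Every 31-base stretch of the 7 entries occurred once in the 6 chromosomes on either strand.

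The 8 genes ran from among the strongest promoters of the lists to no promoter entry. Signal value is the caller's measure of enrichment, is the authors' own, and can be compared only within a list. The pooled and replicate lists each hold 30000 entries, and their lowest values were 14.9 (pooled), 7.57 (replicate 1) and 9.98 (replicate 2).

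At cct-8 (WBGene00021934, chrIV:1087108-1093920) the signal value was 1236 in the pooled list, 571 in replicate 1 and 663 in replicate 2, at ranks 56, 56 and 64. At cct-1 (WBGene00000377, chrII:8185443-8187601) it was 1090.4 in the pooled list and 531 in each replicate, at ranks 80, 68 and 135. Both genes stood among the strongest promoters of the experiment in both replicates. Of the 3181 genes with an IDR summit in their window, 1.85% had a higher value than cct-8 and 2.39% a higher value than cct-1.

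At cct-7 (WBGene00020391, chrV:1872246-1875505) the value was 449.7 in the pooled list, 159.6 in replicate 1 and 295 in replicate 2, at ranks 620, 845 and 476. At cct-6 (WBGene00000381, chrIII:5853530-5855687) it was 314, 112 and 194 in the same order of lists, at ranks 1048, 1328 and 940. These were intermediate promoters, and both ranked higher in replicate 2. Of the genes with an IDR summit, 19.5% were above cct-7 and 33.8% above cct-6.

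At cct-5 (WBGene00000380, chrIII:4499188-4508114) the value was 219 in the pooled list, 97.5 in replicate 1 and 125 in replicate 2, at ranks 1690, 1609 and 1707. The pooled value was close to the median of 223 over all 3181 genes. At cct-2 (WBGene00000378, chrII:8927741-8929815) it was 129.9, 47.0 and 84.4, at ranks 2829, 3352 and 2561, and 77.0% of the genes with an IDR summit had a higher value. The entry at cct-2 was the weakest and, at 100 bp, the narrowest of the 6. The median over the 6 CCT genes was 382.

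At cct-4 (WBGene00000379, chrII:8283667-8285711) the pooled entry had a value of 56.4, at rank 6185, below the lowest IDR entry at 88.4. The highest pooled entry outside the IDR list was also at 88.4. In replicate 1 the entry at cct-4 had a value of 39.8 at rank 3974, within the strongest 4087 entries, the number in the IDR list. That summit lay at -218 bp, and a weaker entry of replicate 1 at 41 bp, inside the gene, had 17.3. In replicate 2 the upstream entry, at -216 bp, had a value of 16.1 at rank 15649. An entry inside the gene, at 81 bp, was stronger, with 20.1 at rank 11558. Both replicates held an entry upstream and others inside the gene. They differed in whether the upstream entry was the strongest and in the side of that cutoff.

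At cct-3 (WBGene00018782, chrII:2233540-2243539) the pooled, IDR and replicate 1 lists had no entry in the promoter window. Replicate 2 had 2 there, the stronger at a value of 12.3 and rank 22875 of 30000, with a −log10 q-value of 0.295 against 4.09 for every IDR entry. The gene is 10000 bp long, and its 2 pooled entries lay in introns with values up to 20.0. Each list stops at 30000 entries, so a missing entry does not show that the protein was absent from the promoter.

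**Figure D1:**
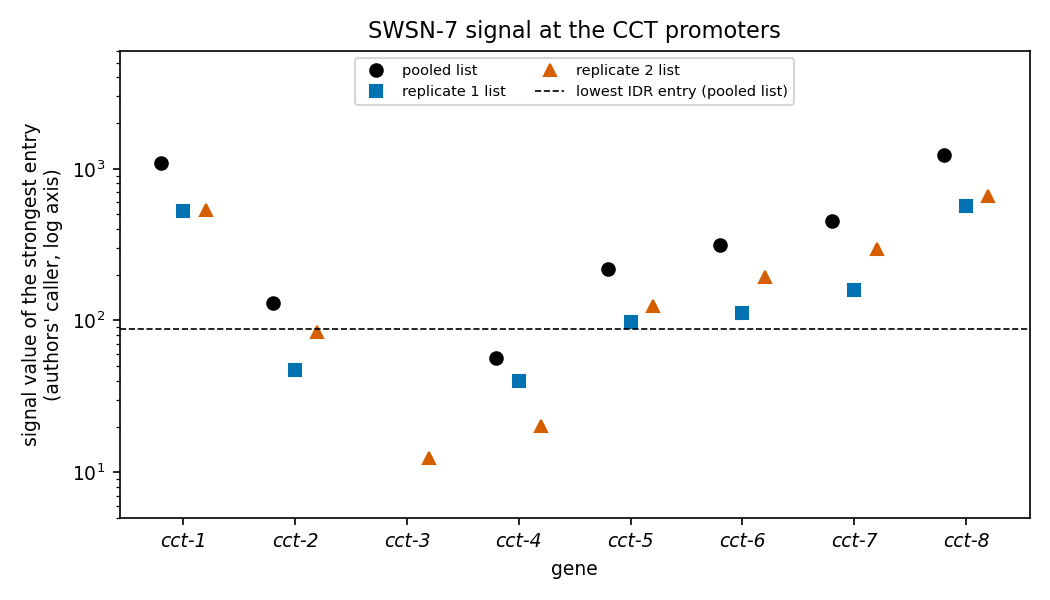
Signal value of the strongest promoter entry of each CCT gene (log axis) in the pooled, replicate 1 and replicate 2 lists, with the lowest IDR entry of the pooled list as a dashed line. The points run from 1236 at cct-8 to 56.4 at cct-4 in the pooled list, and cct-3 has a point from replicate 2 only.

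The order cct-8, cct-1, cct-7, cct-6, cct-5, cct-2, cct-4 was the same in the pooled list and in each replicate list. Across 2549 promoter IDR entries with a match in both replicates, the median log2 ratio of replicate 2 to replicate 1 was 0.44, with a standard deviation of 0.42. The genes with an IDR entry lay from -0.43 (cct-1) to 0.45 (cct-7) around that median, at most slightly beyond 1 standard deviation. For cct-4 the deviation was -1.74 between the upstream entries of both replicates, and -1.42 between the strongest entry of each. The smaller of the gaps in the replicate lists exceeded 0.42 for 3 neighbouring pairs in the order, namely cct-1 over cct-7 (0.85), cct-7 over cct-6 (0.51) and cct-5 over cct-2 (0.56). For the other 3 pairs it did not exceed that spread: cct-8 over cct-1 (0.10), cct-6 over cct-5 (0.20) and cct-2 over cct-4 (0.24).

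**Figure D2:**
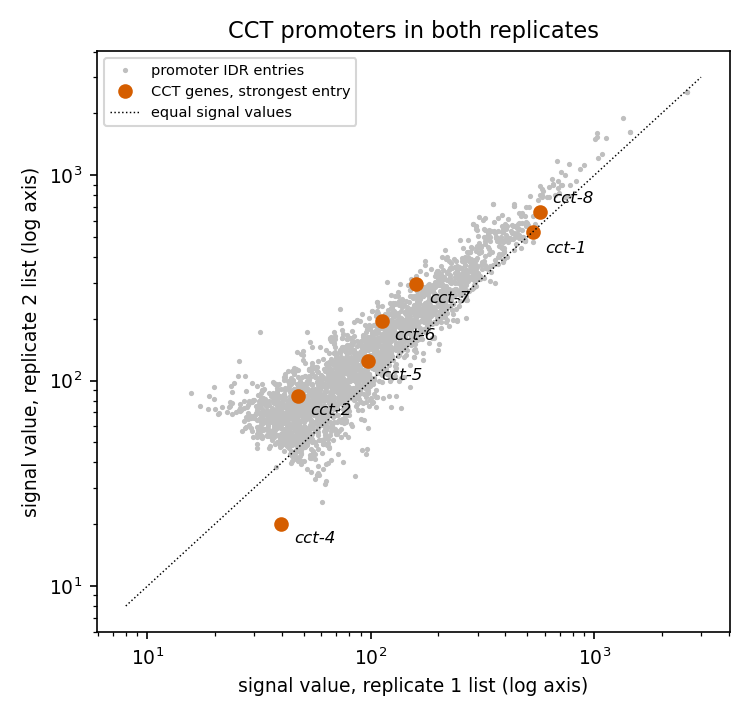
Signal value in the replicate 1 list against the replicate 2 list (log axes) for promoter IDR entries in grey and the strongest entry of each of 7 CCT genes in orange. The 6 genes with an IDR entry lie within the cloud. For cct-4 the point takes the upstream entry of replicate 1 and the strongest entry of replicate 2, inside the gene. That point lies below the line of equal values.

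All 8 CCT genes are divergent, meaning that the next protein-coding gene upstream runs on the opposite strand with its 5′ end facing them. The gap between the pair was 330 bp for cct-6, 419 bp for cct-1, 438 bp for cct-7, 458 bp for cct-4, 620 bp for cct-8, 740 bp for cct-5, 1069 bp for cct-3 and 1189 bp for cct-2. Of all protein-coding genes, 21.9% have a head-to-head neighbour less than 1500 bp away. Such genes had an IDR summit in their window in 32.1% of cases, against 10.3% of genes whose upstream neighbour runs on the same strand. The count of 6 in 8 is therefore to be read against 32.1% as well as against 15.9%. The CCT genes were chosen with earlier results of these data known, so the count carries no weight as support.

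The summits lay from -235 bp (cct-1) to -452 bp (cct-5) from the nearest 5′ end of the 6 genes with an IDR entry, with a median of -302 bp. Over all 3181 genes with an IDR summit the median was -225 bp, with quartiles at -413 and -123 bp. The summit at cct-4 lay at -216 bp. All 7 summits also fell in the promoter window of the neighbour, and for 5 of them the neighbour's 5′ end was the nearer. Of all promoter IDR entries, 31.7% had a summit in the windows of more than 1 gene.

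At cct-8 (summit chrIV:1094355) the own distance was -435 bp and that of Y55F3AR.2 was -186 bp. At cct-1 (chrII:8185208) it was -235 bp, against -185 bp from mig-5, which encodes a Dishevelled protein of Wnt signalling. At cct-7 (chrV:1871965) it was -281 bp, against -158 bp from T10B5.4. These 3 summits, the strongest of the set, were nearer to the neighbour than to the CCT gene.

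At cct-6 (chrIII:5855971) the summit lay at -284 bp, and -47 bp from alh-9, an aldehyde dehydrogenase gene. At cct-5 (chrIII:4508566) it lay at -452 bp, against -289 bp from F25F2.1. At cct-2 (chrII:8927421) the CCT gene was the nearer, with -320 bp against -870 bp from B0457.2. At cct-4 (chrII:8283451) the distances were -216 bp and -243 bp from nst-1, which encodes the nucleolar GTPase nucleostemin. A region between such a pair cannot be given to one gene by position, and the neighbour's part in it was not tested.

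The entry at cct-7 covers the 96 bp noncoding gene T10B5.13, and that at cct-8 overlaps the noncoding gene Y55F3AR.4 by 5 bp, with both summits outside them. The annotated 5′ ends of the CCT genes are themselves uncertain starts. In C. elegans a leader is often spliced onto the transcript, and the annotated end is then the splice acceptor, which ends in AG. For all 8 CCT genes at least 1 transcript began right after AG, as did 36.4% of all protein-coding genes and 4 of the 8 neighbours. Their annotated 5′ UTRs were 0 to 30 bp long. All distances given here are from annotated ends, and starts of transcription were not measured.

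**Figure D3:**
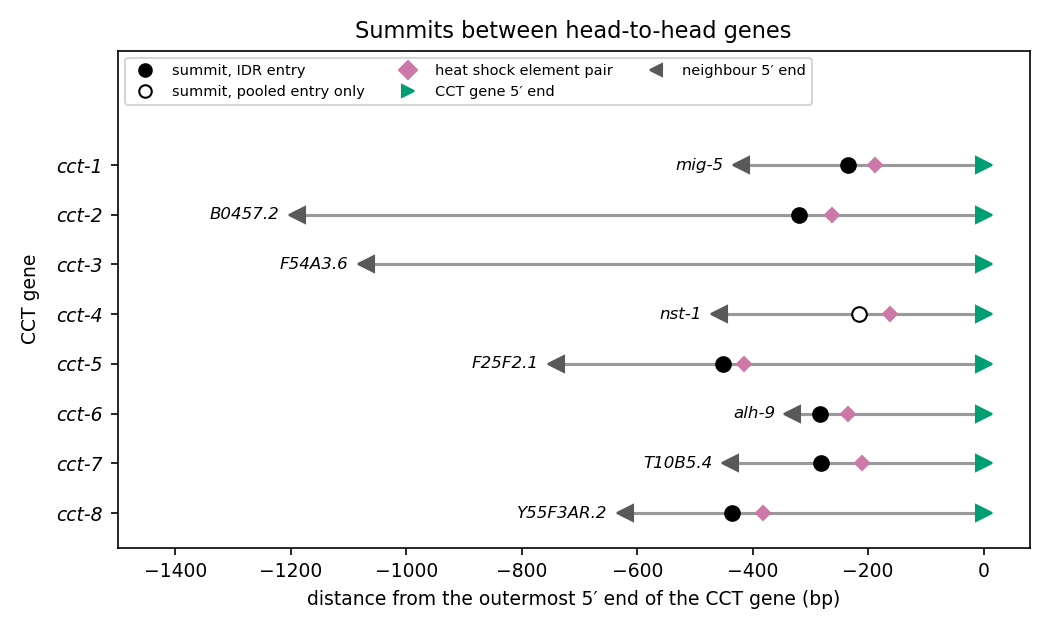
Each line is the gap between the 5′ end of a CCT gene (right, at 0 bp) and that of its head-to-head neighbour (left), with the pooled summit as a circle, open where there is no IDR entry, and the heat shock element pair as a diamond. The summits lie between -216 and -452 bp, and all 7 diamonds lie between the summit and the CCT gene.

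Heat shock element pairs were present in 7 of 7 windows of 200 bp centred on the pooled summits, once in each. Of 2558 windows of the same length at promoter IDR entries, 17.0% held a match to GAANNTTC or TTCNNGAA on either strand. Of 19973 windows centred at -284 bp, the median summit position of the 7 genes, 23.8% held one. GC content in the CCT windows ran from 34.5% at cct-4 to 52.0% at cct-7, and among 1968 promoter IDR windows in that range the share was 17.1%.

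The matches were TTCTAGAA at cct-4, cct-5 and cct-6, TTCGAGAA at cct-2 and cct-7, GAATATTC at cct-1 and GAATTTTC at cct-8. These words occurred in 1.49%, 2.15%, 0.860% and 3.64% of the promoter IDR windows in that order. The first base of the match lay 33 bp (cct-5), 43 bp (cct-1), 45 bp (cct-6), 50 bp (cct-4 and cct-8), 54 bp (cct-2) and 67 bp (cct-7) past the summit, always towards the CCT gene. Counted from its 5′ end these are positions from -166 bp at cct-4 to -419 bp at cct-5.

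A match centred 37 to 71 bp from the summit on either side, the range of the 7 genes, was found in 7.35% of promoter IDR windows. The range was taken from the 7 matches themselves, so this share does not test their placing. The matches lie off the summit, so windows of 100 bp held one in 1 of 7 CCT cases (cct-5), and in 6.25% of promoter IDR entries. In cct-3 the 1000 bp before the 5′ end held TTCGAGAA at -803 bp and GAAAATTC at -22 bp. At that length the motif is common, with a match in 73.7% of all protein-coding genes and in all 8 CCT genes. A match is a stretch of letters for a pair of units, and longer runs of the unit were not searched. No binding of HSF-1 was measured here.

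The other motifs searched in the 200 bp windows were in 0 or 1 of the CCT windows. GAGAGA, which was in 39.8% of promoter IDR windows and 12.2% of all promoters, was in 0 of 7. TATAAA was in 1 of 7 (cct-4), against 14.2% and 24.1%. The E2F-like TTCCCGC (4.46%), the GATA site TGATAA (9.19%), the E-box CACGTG (5.86%), the CRE-like TGACGT (8.91%) and the GC box GGGCGG (11.3%) were in 0 of 7. With 7 windows, 0 cannot be told apart from the latter shares, nor from 12.2%. All were read on both strands, and the E2F-like word can share its TTC with a heat shock element pair, whereas TATAAA cannot overlap one.

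**Figure D4:**
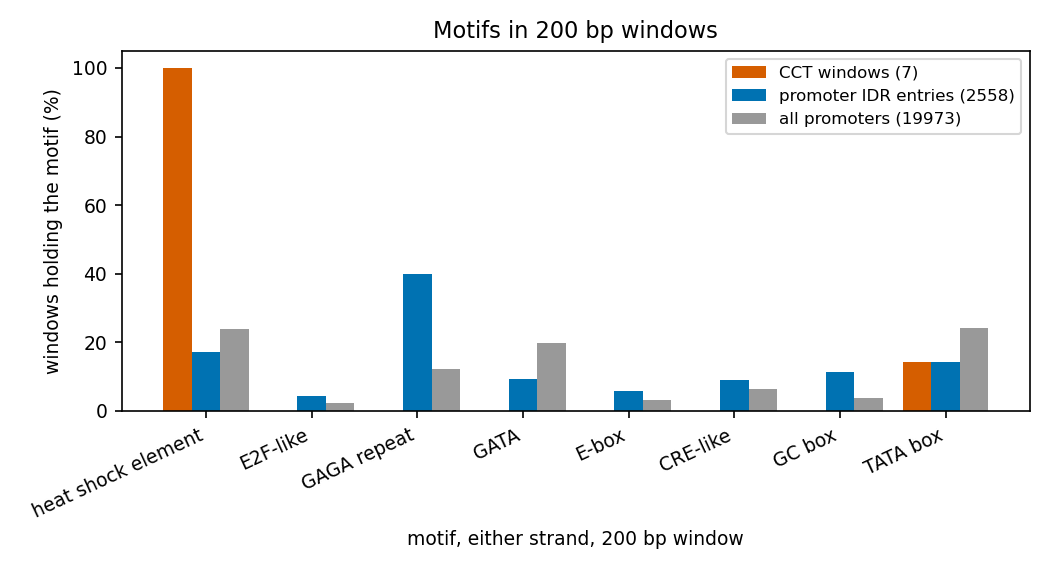
Share of 200 bp windows holding each motif on either strand, for the 7 CCT windows, the 2558 promoter IDR entries and the 19973 promoters. The bar for the heat shock element pair reaches 7 of 7 for the CCT windows against 17.0% and 23.8%. The GAGA repeat is in 39.8% of promoter IDR entries, 12.2% of the 19973 promoters and 0 CCT windows.

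Beyond the promoter, cct-5 was the only CCT gene with IDR entries inside it. There were 2, with summits in intron sequence at chrIII:4504578 (216) and chrIII:4505854 (139.7), 3536 and 2260 bp past the 5′ end. The stronger was close to the promoter entry of the same gene at 219. In the other genes the strongest pooled entry between the 5′ end and the gene's end reached 51.3 (cct-1), and cct-8 had none. At 8927 bp, cct-5 is longer than the other CCT genes except cct-3 (10000 bp). The share of all genes with an IDR entry inside them was not computed, so these entries are not read as a trait of cct-5.

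Prefoldin genes, cytosolic chaperones with their regulator hsf-1, and actins gave a reference list of 16. Of these, 13 had an IDR summit in the window, against 15.9% of all genes. The list was chosen with earlier results of these data known, so this count carries no weight as support. Of the 6 prefoldin genes, 5 had an IDR summit in the window, with values of 815 for pfd-1, 495 for pfd-6, 336 for pfd-4, 296 for pfd-5 and 284 for pfd-3. The sixth, pfd-2, had no promoter entry in any of the lists. Of the chaperones and hsf-1, 4 of 5 had an IDR summit: hsp-90 (1595), the Hsc70 gene hsp-1 (1539), hsp-110 (1126), which encodes a nucleotide exchange factor of Hsp70, and sti-1 (628), which links Hsp70 to Hsp90. The gene hsf-1 had 50.9 in the pooled list and no IDR entry. The summits at pfd-1, pfd-4 and hsp-90 lay nearer to the 5′ end of another protein-coding gene. The same held for a summit among hsp-1, hsp-110 and sti-1, and which of them was not resolved here. Such values cannot be given to the named genes alone by position. With only the nearest 5′ end given each summit, 3 prefoldin genes were called, and 2 among the chaperones and hsf-1. Among actins, which are well-known substrates of the chaperonin, the values were 341 for act-4, 316 for act-2, 174 for act-1 and 103 for act-3, with 39.0 for act-5 outside the IDR list.

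The heat shock element pair was found in the 200 bp window of the 4 chaperone genes and not in that of hsf-1. It was in 3 of 5 prefoldin windows (pfd-3, pfd-4 and pfd-5) and in 0 of 5 actin windows. The share was 17.0% over promoter IDR windows and 23.8% over all promoters. With 5 actin windows, 0 cannot be told apart from those shares. In replicates 1 and 2 the values were 707 and 898 for hsp-90, 651 and 909 for hsp-1, and 337 and 489.7 for pfd-1.

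Genes bound at other regions than cct-8 were ranked by distance from its signal values over the pooled and both replicate lists (log2 scale). The closest were sqd-1 (0.11), ntl-11 (0.16), hsp-3 (0.18) and lgg-2 (0.22). Their pooled values were 1153, 1152, 1204 and 1185. The first resembles the hnRNP gene squid of Drosophila, ntl-11 is named for a CCR4-NOT subunit, hsp-3 encodes an Hsp70 of the endoplasmic reticulum and lgg-2 an Atg8 family protein.

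How a gene was called changed the count of CCT genes. With a window of 300 bp on each side, 3 were called (cct-1, cct-6 and cct-7; 10.1% of all genes), and with only the nearest 5′ end given each summit, 1 was called (cct-2; 12.0%). The strongest 2043 entries of the IDR list left 5, without cct-2 (9.57%). The count was 6 with the window reaching 2000 bp upstream (20.0%) and with any 1 bp overlap of the entry (16.7%). The strongest 4087 entries of replicate 2 alone gave the same 6 genes (15.9%), those of replicate 1 alone added cct-4 (15.6%), and the whole pooled list gave the same 7 (46.0%).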

How the data were processed

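The 2 replicates made up 1 group. Per the readme files, the authors called candidate regions against a control, in ce10 and ce11, in either replicate and in pooled reads, and an IDR-thresholded list was derived from them. Neither aligner nor peak caller is named: not given in the sources used here. Their deposited signal value was used to rank within a list. The deposited −log10 q-value was at its ceiling of 4.09 in all 4087 IDR entries and ranks nothing. Those entries were the pooled entries at or above a signal value of 88.4.

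Positions are 1-based in ce11, with gene models of Ensembl release 115. Summits were assigned to 5′ ends of protein-coding transcripts with Python 3.11.15, pandas 2.3.3 and numpy 2.4.6, and the assignment and the motif search were tested on simulated data. No test was run: with 1 group there is nothing to compare, and genes are not replicates. Named genes are the CCT genes, genes sharing their entries, the reference list of 16 and the 4 at other regions closest to cct-8. The members and lists were chosen with earlier results of these data known. The alternatives were other promoter windows, assignment to the nearest 5′ end, overlap, the strongest 2043 IDR entries, each replicate alone, the whole pooled list, 100 bp sequence windows and, added after seeing the data, the ce10 list. The head-to-head class with its gap of 1500 bp, the AG check of 5′ ends, the search for repeated 31-base stretches, the shares within the GC and element-distance ranges, the 1000 bp search and the 7-base words were also chosen after seeing the data.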

Additional observations from a re-analysis of the deposited data

How the results depend on the processing

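No paired analysis was possible because there was 1 group. The count of 6 CCT genes moved to 3 with 300 bp windows and to 1 with the nearest 5′ end alone, and ran from 6 to 7 with a single replicate. Other windows, overlap, the strongest 2043 IDR entries, the pooled list and the ce10 list left 5 to 7. The ce10 IDR list holds 5112 entries down to a signal value of 69.8, and entries were matched by chromosome, width and signal value. The count of 13 reference genes was 8 with 300 bp windows, 13 with either replicate, and 9 to 15 otherwise. The share of all genes, 15.9%, was 10.1% with 300 bp windows, 9.57% with the strongest 2043 entries and 46.0% with the pooled list, and ran from 15.6% to 15.9% with a single replicate. The 100 bp windows held a heat shock element pair in 1 of 7 cases, as the matches start 33 to 67 bp past the summit. In the 100 bp windows the median GC content was 47.0%, against 40.0%. Depth is unknown and limits every statement on cct-3 and cct-4.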

Other observations

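Among all 7-base words in the 200 bp CCT windows, AGACCCA or its reverse complement was present at cct-1, cct-4, cct-5 and cct-6. Of the words in at least 4 of the 7 windows it was the rarest elsewhere, with 3.01% of 2558 promoter IDR windows. It was picked after the windows were seen, as the extreme of many words, so its share carries no weight as a result.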
